A study of Schizosaccharomyces pombe with 12 samples.

Results

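The genes described here are those of *S. pombe* that lie within 80 kb of an end of chromosome I or chromosome II. The deposited table held 71 such genes, taken by position. The group itself was chosen with earlier results of these data known. A pair with the same open reading frame (*plb4+*, SPAC977.09c, and SPBC1348.10c) was left out, as were 9 genes that had under 5 reads in at least 2 of the 12 libraries. The remaining 60 subtelomeric genes, of 4584 genes tested, were 19 on the left arm and 13 on the right arm of chromosome I, and 17 on the left arm and 11 on the right arm of chromosome II. The study compared haploid with diploid cells, untreated (NT) or grown for 4 h in 0.0075% MMS, an agent that alkylates DNA and blocks replication forks. Polyadenylated RNA was sequenced from 12 libraries, 3 for each ploidy with and without MMS. The haploid was h- *smt-0* with the alleles *ade6-M210*, *leu1-32*, *ura4-D18* and *his3D-1*. The diploid was made by protoplast fusion and is homozygous for h- *smt-0*, *leu1-32*, *ura4-D18* and *his3D-1*, with *ade6-M210/ade6-M216*, so both strains are of a single mating type and do not switch it. Both were grown in rich medium (YES), and each culture was divided between NT and MMS. A single strain stands for each ploidy, so ploidy and strain cannot be told apart.

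In fission yeast the DNA next to the telomeres is packed into heterochromatin, which is marked by methylation of histone H3 by Clr4 and bound by Swi6, and genes placed there are kept at a low level. Farther from the end lies a region of condensed chromatin that depends on the shugoshin Sgo2. Subtelomeres hold many members of multigene families that have been copied between chromosome ends, together with genes for transporters, sugar use and stress enzymes, many of which respond to starvation or stress. Fission yeast ends of chromosomes I and II share long stretches of sequence, so a read from such a stretch may have come from more than 1 gene.

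Near-identical copies were common among the subtelomeric genes. Of the 60 genes, 18 encoded a protein at least 95% identical to that of another gene over at least 80% of the longer protein. Across the exons, the median share of 100-base stretches that occur once in the genome was 91.9% for the subtelomeric genes and 100% for all genes tested. For 30 of the 60 genes that share was under 90%, as for 1.85% of all genes tested, and for 27 it was under 50%. A family of 4 such copies holds *ftm1+*, *ftm4+*, *ftm5+* and SPBPB2B2.19c, which encode a protein with transmembrane helices and lie on the 4 different chromosome arms. Over the 1035 bases of coding sequence, *ftm4+* and *ftm5+* differed at 3 bases and *ftm5+* and SPBPB2B2.19c at 0. The 953 bases that *ftm1+* shares with *ftm5+* differed at 1 base. The stretch of 120 bases that holds the most differences among the 4 copies is shown with capitals at the bases that differ, because reads can be told apart between the copies only at such bases. The copies are at chrI:30379-30498 (plus strand), chrI:5566424-5566543 (minus strand), chrII:8677-8796 (plus strand) and chrII:4504128-4504247 (minus strand) in RefSeq ASM294v3, and each is written 5′ to 3′ on its coding strand.
ftm1: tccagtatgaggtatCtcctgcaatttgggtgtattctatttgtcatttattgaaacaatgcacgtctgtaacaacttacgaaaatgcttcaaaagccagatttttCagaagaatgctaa
ftm4: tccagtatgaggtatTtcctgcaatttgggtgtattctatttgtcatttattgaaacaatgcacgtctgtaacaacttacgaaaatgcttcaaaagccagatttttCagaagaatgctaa
ftm5: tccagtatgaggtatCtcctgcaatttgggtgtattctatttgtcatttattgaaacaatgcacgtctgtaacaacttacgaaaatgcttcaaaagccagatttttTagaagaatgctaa
SPBPB2B2.19c: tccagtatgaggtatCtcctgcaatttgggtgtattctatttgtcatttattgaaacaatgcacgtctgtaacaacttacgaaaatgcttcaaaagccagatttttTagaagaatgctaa
The exons of *ftm4+* held 14.7% of 100-base stretches that occur once in the genome, those of *ftm1+* 6.5% and those of *ftm5+* and SPBPB2B2.19c 0%. Mean RPKM over the 12 libraries was 18.3 for *ftm1+*, 12.6 for *ftm4+*, 0.914 for *ftm5+* and 0.649 for SPBPB2B2.19c. Levels of the latter pair could not be told apart at this sequence identity.

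The fluoride export channel genes *fex1+* (I left) and *fex2+* (II left), whose proteins are identical, are a second such pair. They differed at 1 of 936 coding bases. The first 30 coding bases, chrI:55274-55303 (plus strand) and chrII:56756-56785 (minus strand), hold that difference, in capitals.
fex1: atgctAttaacacagtcttacttttgtata
fex2: atgctTttaacacagtcttacttttgtata
*fex1+* stood at 9.57 ± 1.52 CPM (counts scaled by TMM library size, SD, n = 3) in haploid NT and 9.99 ± 0.627 in diploid NT, and *fex2+* at 9.23 ± 1.1 and 11.1 ± 1.13. Neither was called in any comparison with these library sizes.

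The aldo/keto reductase genes SPAC977.14c (I left) and SPAC750.01 (I right), which encode enzymes that reduce carbonyl compounds with NADPH, are more diverged. Over the 978 bases that they share to the 3′ end, they were 93.7% identical and differed at 62 bases, and 83.8% and 79.8% of their 100-base exon stretches occur once in the genome. They are shown because their range between haploid libraries differed although they are copies. In haploid NT it was 1.23-fold for SPAC977.14c and 8.85-fold for SPAC750.01. The 120 bases with the most differences, 22 in capitals, are at chrI:60415-60534 (minus strand) and chrI:5555949-5556068 (plus strand).
SPAC977.14c: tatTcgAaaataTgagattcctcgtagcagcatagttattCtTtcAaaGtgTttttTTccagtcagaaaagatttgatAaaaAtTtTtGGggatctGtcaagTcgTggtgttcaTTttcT
SPAC750.01: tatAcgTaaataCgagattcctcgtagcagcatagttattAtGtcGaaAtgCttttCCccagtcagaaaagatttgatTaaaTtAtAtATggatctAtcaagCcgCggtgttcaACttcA
Both were among the most abundant subtelomeric genes, at a mean of 1434.1 RPKM for SPAC977.14c and 560.5 RPKM for SPAC750.01.

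Libraries held 15684278 to 25981418 counts on *S. pombe* genes, of which the 60 subtelomeric genes took 0.538% to 1.17%. The 4 most abundant of them made up 49.5% to 77.2% of that share. Diploid MMS library 3 had the largest share (1.17%, against 0.802% and 0.826% in the other diploid MMS libraries), and 37 of the 60 genes were at their highest of the 3 diploid MMS libraries there, as were 41.4% of all genes tested. In haploid NT, 35 of the 60 were at their lowest in library 1, as were 42% of all genes. Scaled by the ERCC spike-ins in place of TMM, the median log2FC of all genes moved to 0.84 between diploid and haploid NT, 1.44 between diploid and haploid MMS, -0.60 for MMS in haploids and 0.02 for MMS in diploids. Relative to those shifts the subtelomeric medians were 0.34, 0.38, -0.25 and -0.15. Except where spike-in factors are named, changes below are shares of the mRNA within a library, and amounts per cell were not measured by them. The study took the same number of cells for each sample and added the spike-ins at equal dilution and volume. It reported higher expression on average in untreated diploids than haploids after spike-in scaling. As a check of the h- label, the 6 M-cell genes summed to 6557 to 9425 counts per library and the 2 P-cell genes *map2+* and *map3+* to 1385 to 3460 in the haploid and diploid NT libraries and the haploid MMS libraries. In diploid MMS 1, 2 and 3 the P-cell sum was 1665, 999 and 8186. Genes of both lists were thus detected in every library, and none was called in any comparison.

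Subtelomeric genes were expressed at a low level, and lower near the end. In RNA from whole cultures, fewer cells with a transcript and less of it per cell cannot be told apart. The median level was 11 RPKM (CPM per kb of exon, mean of the 12 libraries), against 58.2 RPKM over all genes tested. By distance from the end to the nearer edge of the gene, the median was 7 RPKM for the 9 genes within 20 kb, 13.1 for the 17 at 20 to 40 kb, 11.9 for the 18 at 40 to 60 kb and 26.8 for the 16 at 60 to 80 kb. The ratio of the nearest to the farthest bin was 0.262. It was 0.129 in CPM, which does not account for gene length, and 0.0588 for 10 kb bins. The nearest 10 kb bin held only *tlh2+* and *ftm5+*, with 7.7% and 0% of exon stretches found once in the genome. The share of exon sequence that is unique also fell toward the ends, so low counts and shared sequence go together there, and their part in the levels was not tested. The gene nearest each end was *tlh2+*, a RecQ type DNA helicase gene 6.91 kb from the right end of chromosome II, at 1.32 RPKM, *ftm5+* (7.63 kb, 0.914 RPKM), SPAC212.08c, a GPI anchored protein (11.8 kb, 7.05 RPKM), and *ftm4+* (11.8 kb, 12.6 RPKM).

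**Figure D1:**
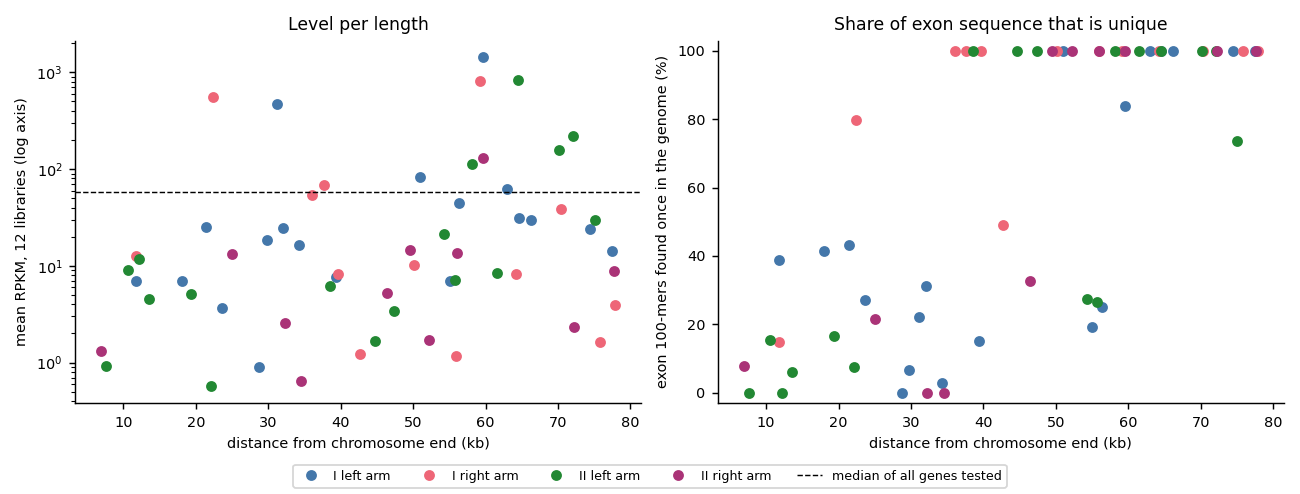
The left panel plots mean RPKM over 12 libraries (log axis) of each of the 60 subtelomeric genes against its distance in kb from the chromosome end, colored by arm, with the median of all genes tested (58.2 RPKM) as a dashed line. The right panel plots the share of 100-base exon stretches that occur once in the genome, and most genes within 35 kb of an end lie under 50% there.

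The abundant genes of each arm were exceptions to the low level. On the left arm of chromosome I these were SPAC977.14c (1434.1 RPKM), SPAC977.18, an uncharacterized gene conserved in fungi (472.9 RPKM), and *nhe1+*, a sodium ion/proton antiporter (82.9 RPKM). On the right arm they were *yhb1+*, a nitric oxide dioxygenase that turns nitric oxide into nitrate (819.1 RPKM), SPAC750.01 (560.5 RPKM) and *gdt1+*, a GDT1-like protein (68.7 RPKM). On the left arm of chromosome II they were *cmt2+*, a catechol O-methyltransferase homolog (837.2 RPKM), the pseudogene SPBPB21E7.08 (221.1 RPKM) and *aes1+*, a phenazine biosynthesis family protein (159.1 RPKM). The right arm of chromosome II held none above 130.8 RPKM (*pan5+*, a 2-dehydropantoate 2-reductase), with *gal1+* and *gal7+*, which act in galactose use, at 14.5 and 13.5 RPKM. By product the 4 redox enzymes had a median of 689.8 RPKM, against 7.11 RPKM for 9 transport genes, 14.5 for 17 other enzymes, 3.41 for 3 DNA and transcription genes, 7.05 for 3 cell surface genes and 10.9 for 24 uncharacterized genes. The redox group is SPAC977.14c, SPAC750.01, *yhb1+* and *pan5+*.

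More subtelomeric genes were higher than lower in untreated diploids compared with haploids. Between diploid and haploid NT, 7 were called higher (1.11% of all genes tested were called higher) and 2 lower (1.79% of all), where a call required an absolute log2FC above 0.58 and an edgeR adjusted p under 0.05. The median log2FC of the 60 was 0.28 and that of all genes 0.01, and 43 of the 60 were above 0. In CPM, 15 of the 60 lay above every haploid NT library in all 3 diploid NT libraries (14.6% of all genes did) and 5 lay below (14.7%). DESeq2 called 6 higher (1.68% of all genes) and 3 lower (2.33%), and gave *ftm4+* and SPBPB2B2.05 no adjusted p. With spike-in factors 46 of the 60 were higher (77.7% of all genes) and 0 lower (0.0218%). Those called higher were spread over the 4 arms, as *ftm4+*, *yhb1+*, *dak2+*, *cmt2+*, *grt1+*, SPBPB8B6.02c and SPBPB2B2.05, and those called lower were SPAC977.18 and *ftm6+*. In a fit of the NT groups alone, *ftm4+*, *yhb1+*, *ftm6+*, SPBPB8B6.02c and SPBPB2B2.05 lost their calls. SPAC977.14c was called higher in that fit (log2FC 0.77, edgeR adjusted p = 0.0312).

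The largest difference was in *ftm4+*. It stood at 0.511, 1.43 and 9.4 CPM in the haploid NT libraries and at 36.8, 32.8 and 35.5 CPM in the diploid NT libraries. The groups did not overlap, and the haploid library 3 was well above the other haploid libraries. The log2FC was 3.21 (SE 0.799, adjusted p = 0.038 from edgeR), between 2.67 and 5.19 when each library was left out, with the call kept in 2 of 6 such fits and lost at adjusted p up to 0.162. In MMS it was at 1.06, 1.39 and 6.45 CPM in haploids and 27.3, 27.4 and 40.9 CPM in diploids, again without overlap. *ftm4+* carries few unique stretches (14.7%, above), so reads of its copies may be counted there.

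Levels of SPBPB2B2.05, of the class I glutamine amidotransferase family, were low in both strains. They were 0.0568, 1.43 and 1.23 CPM in haploid NT and 6.31, 6.42 and 3.63 CPM in diploid NT (log2FC 2.61 with SE 0.514, edgeR adjusted p = 0.0133). The lowest of these values is 1 count. SPBPB8B6.02c, a predicted urea transporter, stood at 0.625, 2.23 and 3.1 CPM in haploid NT and at 8.59, 9.63 and 5.72 CPM in diploid NT (log2FC 2.01 with SE 0.415, edgeR adjusted p = 0.0166). Its neighbor *grt1+*, a transcription factor gene, lay at 3.52, 7.76 and 8.12 CPM in haploids and 20.5, 19.3 and 17.4 CPM in diploids (log2FC 1.56 with SE 0.369, edgeR adjusted p = 0.0305). When each library was left out in turn, the call held in 4 of 6 fits for SPBPB2B2.05, 3 of 6 for SPBPB8B6.02c and 1 of 6 for *grt1+*. These genes lie 44.7 and 47.4 kb from the left end of chromosome II, consecutive among the genes tested. Between them is the acetamidase gene *fah1+*, removed for low counts, which overlaps *grt1+* by 1703 bases on the opposite strand.

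The other genes called higher were more abundant. *dak2+*, a dihydroxyacetone kinase of glycerol use, was at 56.3, 67.4 and 67.9 CPM in haploid NT and 136.3, 105.3 and 124.5 CPM in diploid NT (log2FC 0.93 with SE 0.166, edgeR adjusted p = 0.00875). *cmt2+* was at 541.5, 555.5 and 523.7 CPM in haploids and 852.8, 769.1 and 1007.2 CPM in diploids (log2FC 0.70 with SE 0.107, edgeR adjusted p = 0.00463). This was the call that held in all 6 fits without a library, with log2FC from 0.59 to 0.78. *yhb1+* was at 1494, 786.5 and 848.2 CPM in haploids and 1903, 2188.3 and 2001.3 CPM in diploids (log2FC 0.96 with SE 0.235, edgeR adjusted p = 0.0358), and its call held in 1 of 6 such fits, against 5 of 6 for *dak2+*.

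Among the genes called lower, SPAC977.18 stood at 447, 454.6 and 356.8 CPM in haploid NT and at 242.6, 251.1 and 258.9 CPM in diploid NT (log2FC -0.74 with SE 0.171, edgeR adjusted p = 0.028). *ftm6+*, a copy of *ftm2+* that encodes a transmembrane protein, was at 10.7, 10.6 and 6.37 CPM in haploids and 4.73, 4.97 and 4.05 CPM in diploids (log2FC -1.01 with SE 0.223, edgeR adjusted p = 0.0238). Each of these calls held in 2 of 6 fits without a library. Under spike-in scaling both calls were lost, and the log2FC were 0.08 and -0.14. *ftm2+* (I left), the copy of *ftm6+*, overlaps SPAC977.18 by 312 bases on the opposite strand. It was at 25.6, 28.1 and 20.1 CPM in haploids and 17.3, 14.5 and 15.7 CPM in diploids, with edgeR adjusted p = 0.0797. Of 100-base exon stretches, 22% in SPAC977.18, 15.4% in *ftm6+* and 31.2% in *ftm2+* occur once in the genome. Reads from elsewhere may thus be counted in them, and the 2 lower calls may not be separate observations. With the library number as a block 7 were higher (1.4% of all genes) and 2 lower (1.85%), although library numbers do not pair haploid with diploid cultures. The count of 9 calls ran from 1 without diploid NT 1, 2 without diploid NT 2, 3 without haploid NT 2 and 5 without diploid NT 3 to 11 without haploid NT 1. The median log2FC was then 0.14 to 0.36. The share of all genes called in those fits was not worked out.

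**Figure D2:**
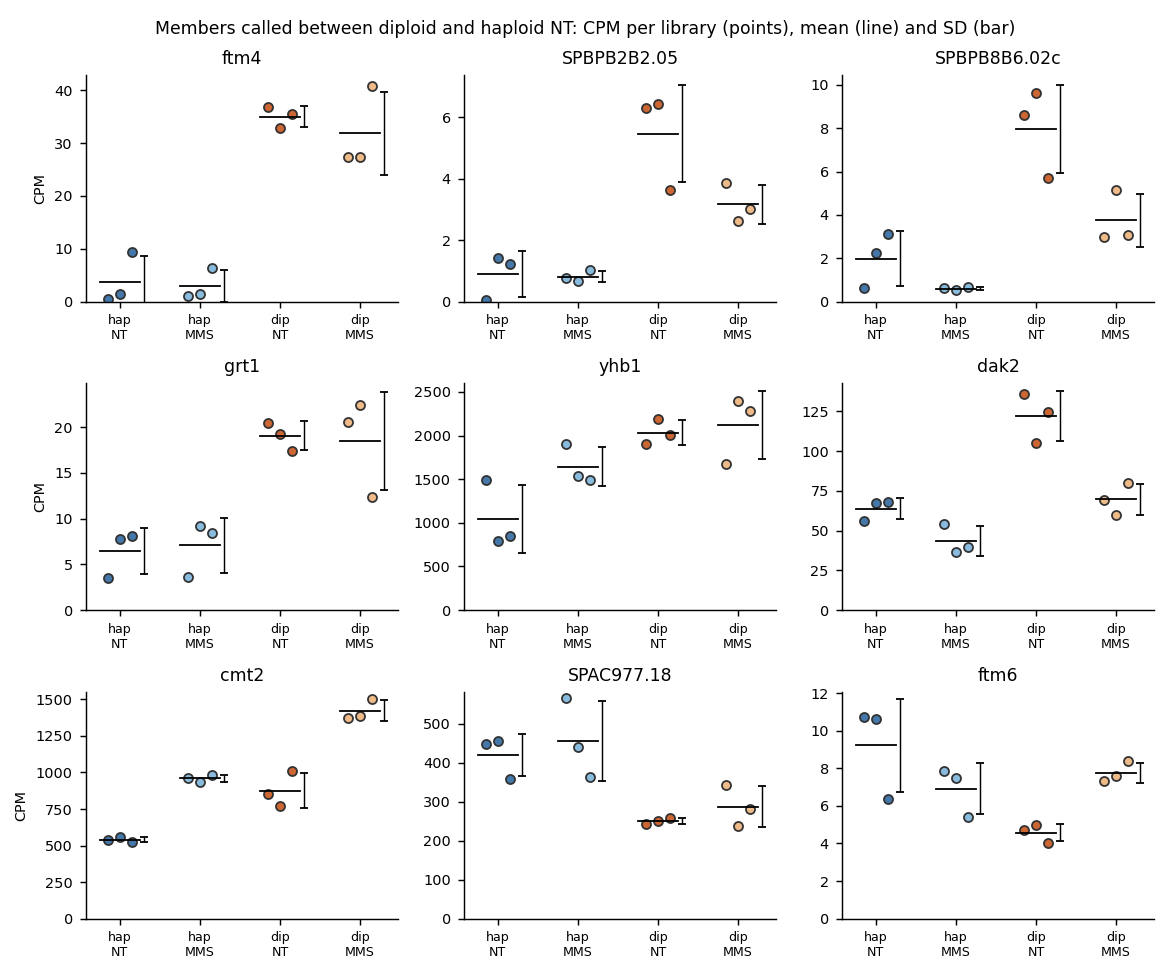
CPM of the 9 subtelomeric genes called between diploid and haploid NT, in all 12 libraries (points), with the mean (line) and SD (bar) of each group of 3. The diploid and haploid NT points do not overlap in any of the panels, and *cmt2+* also differed between MMS and NT within each ploidy.

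*eno102+* and *cmt2+*, on the left arm of chromosome II, rose in MMS in both ploidies. In haploids, 3 subtelomeric genes were called higher in MMS (1.64% of all genes were) and 1 lower (1.07%). The median log2FC of the 60 was -0.34 and that of all genes -0.02, with 16 of the 60 above 0. In CPM, 8 lay higher in every MMS library than in any NT library (15.1% of all genes) and 7 lower (13.2%). The 3 called higher were consecutive among the genes tested on the left arm of chromosome II, 58.1 to 64.5 kb from the end, as *eno102+*, SPBPB21E7.11 and *cmt2+*. *eno102+*, an enolase of glycolysis, rose from 104.4, 137.9 and 114.7 CPM to 279.4, 277.6 and 270.3 CPM (log2FC 1.21 with SE 0.146, edgeR adjusted p = 0.00182). SPBPB21E7.11, an uncharacterized gene specific to fission yeast, rose from 8.69, 8.44 and 6.6 CPM to 26.3, 18.4 and 16.3 CPM (log2FC 1.36 with SE 0.268, edgeR adjusted p = 0.0164), and *cmt2+* to 961.7, 936 and 981.3 CPM (log2FC 0.83 with SE 0.107, edgeR adjusted p = 0.00194). The groups did not overlap for any of the 3, and the calls of *eno102+* and *cmt2+* held in all 6 fits without a library, that of SPBPB21E7.11 in 3. SPAC212.03, an uncharacterized gene, fell from 1.82, 1.92 and 2.75 CPM to 0.657, 0.335 and 0.512 CPM (log2FC -2.10 with SE 0.497, edgeR adjusted p = 0.0354). Its call held in 2 of 6 such fits. These levels are 32, 31 and 47 counts in haploid NT and 13, 7 and 13 in haploid MMS. Of its 100-base exon stretches, 27.2% occur once in the genome. DESeq2 called 4 higher (2.03% of all genes) and 5 lower (1.79%). With spike-in factors 0 were higher (0.109%) and 6 lower (3.47%), and the log2FC of *eno102+*, SPBPB21E7.11 and *cmt2+* were 0.67, 0.81 and 0.24, with edgeR adjusted p = 0.061, 0.0854 and 0.424. SPBPB21E7.11 overlaps SPBPB21E7.10, removed for low counts, by 601 bases on the opposite strand.

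Of the same run, *eno102+* and *cmt2+* were also called higher by MMS in diploids. In diploids, 2 genes were called higher (0.589% of all genes were) and 3 lower (0.349%), and the median log2FC was -0.17 against 0.01 for all genes, with 22 of the 60 above 0. In CPM, 7 lay higher in every MMS library (13.3% of all genes) and 13 lower (10.4%). *eno102+* rose from 122.9, 96.1 and 119.8 CPM to 235.6, 191.2 and 164.9 CPM (log2FC 0.80 with SE 0.145, edgeR adjusted p = 0.0268), and *cmt2+* from the diploid NT levels above to 1370.5, 1388.7 and 1504.1 CPM (log2FC 0.70 with SE 0.107, edgeR adjusted p = 0.016). The genes called lower were *dak2+*, its neighbor SPAC977.17 and SPAC869.01. *dak2+* fell to 69, 60 and 79.9 CPM, against 63.9 ± 6.53 CPM (SD, n = 3) in haploid NT and 43.5 ± 9.59 in haploid MMS. Its log2FC was -0.81 (SE 0.166, adjusted p = 0.0416 from edgeR). SPAC977.17, a MIP superfamily protein of the aquaglyceroporin type, fell from 157.1, 162.7 and 146.5 CPM to 90.8, 78.4 and 99.6 CPM (log2FC -0.79 with SE 0.146, edgeR adjusted p = 0.0279). *dak2+* and SPAC977.17 overlap by 762 bases on opposite strands. The sources do not say how reads there were counted, so their falls may not be separate observations. In haploid MMS the log2FC was -0.57 for SPAC977.17 (edgeR adjusted p = 0.0448, short of the fold threshold), -0.55 for *dak2+* (0.0776) and -1.50 for SPAC869.01 (0.0682), and DESeq2 called the first and the last. SPAC869.01, an amidase, fell from 5.93, 5.6 and 2.26 CPM to 1.58, 1.28 and 1.01 CPM (log2FC -1.83 with SE 0.383, edgeR adjusted p = 0.0431). The call of *cmt2+* held in 3 of 6 fits without a library and each of the other calls in 1 of 6. DESeq2 called 5 higher (1.27% of all genes) and 4 lower (0.589%), and spike-in factors gave 0 higher (0.0436%) and 0 lower (0.0218%).

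Because a culture was divided between NT and MMS, the same comparisons were fitted with the culture, taken from the library number, as a block. With the block, haploid MMS gave 6 higher (2.42% of all genes) and 7 lower (2.14%), and diploid MMS 6 higher (1.51%) and 10 lower (1.29%). *aes1+*, the next gene of the run on chromosome II, then joined *eno102+*, SPBPB21E7.11 and *cmt2+* in both ploidies, with adjusted p = 0.0221 in haploids and 0.0267 in diploids from edgeR with the block. It was at 63.8, 127.5 and 96 CPM in haploid NT and 103.7, 287.5 and 263.2 CPM in haploid MMS, and at 128.3, 112.7 and 114.9 CPM and 393.9, 376.2 and 137 CPM in diploids. SPBPB21E7.11 was called in diploids too (5.06, 4.09 and 7.26 CPM to 14.3, 8.18 and 13.3 CPM, log2FC 1.13, adjusted p = 0.00673 with the block). Those lower in both ploidies with the block were SPAC212.06c, a DNA helicase-like protein (log2FC -0.70 and -1.26), SPAC869.01 (-1.46 and -1.78), SPAC186.04c (-0.78 and -0.63) and SPBPB8B6.02c (-1.72 and -1.11). The other genes called by edgeR with the block and not without it were *yhb1+* (log2FC 0.71), SPAC212.08c (-1.11), SPBC1348.07 (-1.03) and *mel1+*, a melibiase (0.71), in haploids, and *ftm2+* (0.64), *ftm6+* (0.76), the glycoprotein gene *pfl9+* (-0.62), the hexose transporter gene *ght7+* (-0.69), the sterol deacetylase gene *say1+* (-0.64) and *mel1+* (-0.68) in diploids. Of these, DESeq2 without the block also called *yhb1+* and SPBC1348.07 in haploids and *ftm2+* and *ftm6+* in diploids.

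**Figure D3:**
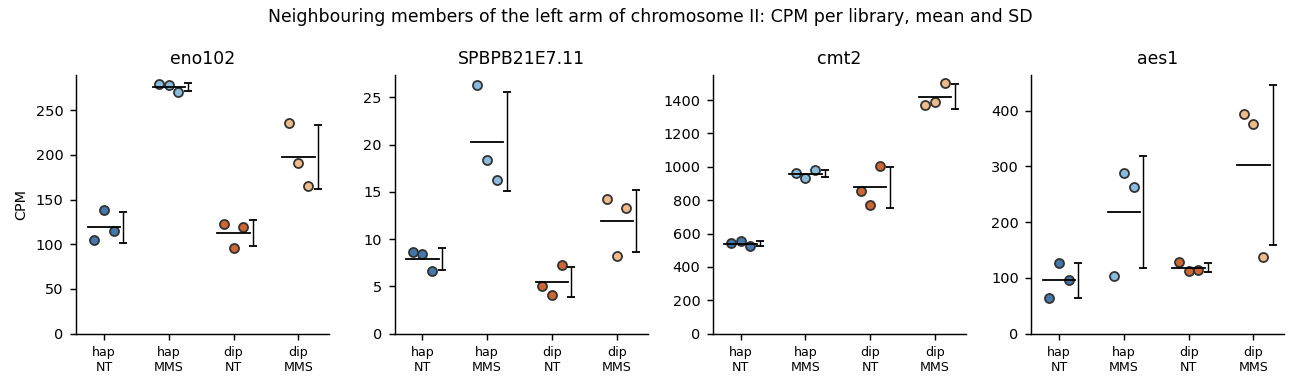
CPM in each of 12 libraries (points), group mean (line) and SD (bar) for 4 neighboring genes on the left arm of chromosome II. *eno102+* and *cmt2+* were higher in all MMS libraries than in any NT library of the same ploidy, and for *aes1+* the diploid MMS library 3 (137 CPM) lay near the NT level.

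Without single libraries the counts ran from 2 to 9 calls in haploids (2 without haploid NT 2, haploid NT 3 or haploid MMS 2, 8 without haploid MMS 1 and 9 without haploid NT 1) and from 0 to 8 in diploids (0 without diploid NT 1, diploid NT 2 or diploid MMS 1, 1 without diploid MMS 2, 2 without diploid NT 3 and 8 without diploid MMS 3). The median log2FC was -0.46 to -0.15 in haploids and -0.39 to -0.07 in diploids. The share of all genes called without a library was not worked out.

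**Figure D4:**
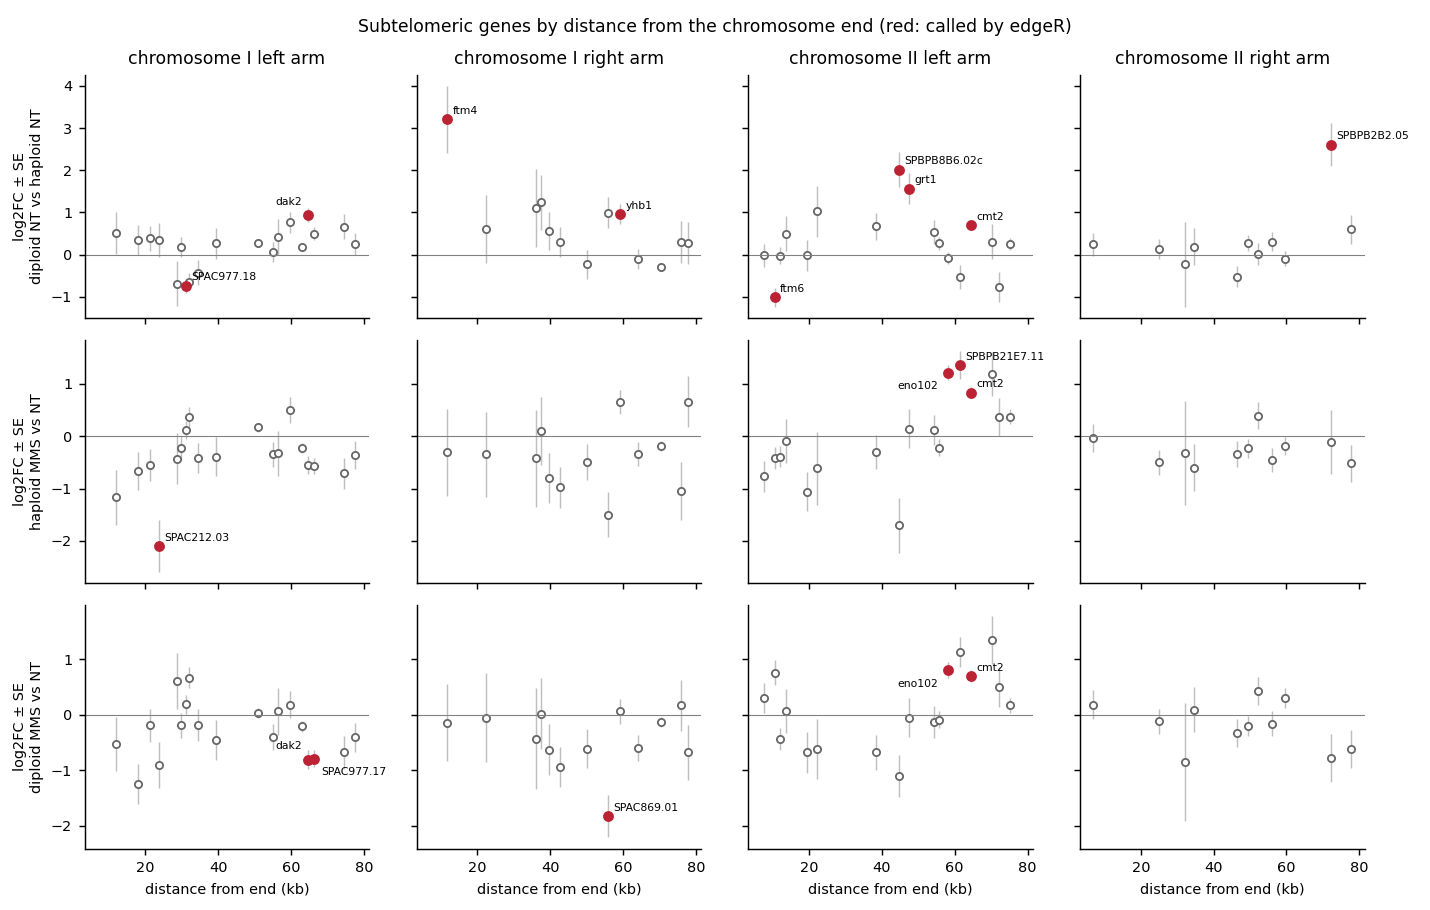
The log2FC with SE of each subtelomeric gene against its distance from the chromosome end in kb, for the 4 arms (columns) and 3 comparisons (rows), with called genes in red. The 3 genes called higher in haploid MMS sit side by side on the left arm of chromosome II, at 58.1 to 64.5 kb.

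In MMS, SPBPB8B6.02c was the only subtelomeric gene called between diploids and haploids. It was at 0.606, 0.526 and 0.669 CPM in haploid MMS and 3, 5.16 and 3.07 CPM in diploid MMS (log2FC 2.60 with SE 0.486, edgeR adjusted p = 0.0333). That is 1 call higher (0.305% of all genes) and 0 lower (0.24%). At an unadjusted p under 0.05 there were 14 higher and 4 lower, as for 14.4% of all genes in either direction, and DESeq2 called 5 higher (0.894%) and 1 lower (0.589%). With spike-in factors 58 were higher (99.2% of all genes). In CPM, 21 of the 60 lay higher in all diploid MMS libraries than in any haploid MMS library (8.7% of all genes did) and 4 lower (11%). The median log2FC was 0.37 against 0.01 for all genes, and without each library it was 0.21 to 0.45, the lowest without diploid MMS 3. The call was kept without diploid MMS 3 and lost without any other library of the comparison. *cmt2+* (log2FC 0.57, adjusted p = 0.033 from edgeR) missed the fold threshold of 0.58. *ftm4+* (log2FC 3.38, edgeR adjusted p = 0.0818) was not called. With the library number as a block 2 were higher (0.305%) and 0 lower (0.218%), with *ftm4+* called (edgeR adjusted p = 0.0321). Library numbers do not pair haploid with diploid cultures, so this block does not stand for a shared culture.

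The MMS response of subtelomeric genes was not shown to differ between ploidies. The interaction, which is the MMS response of diploids minus that of haploids, gave 0 calls among the 60 and among all genes (0% of all) with edgeR, and 0 among the 60 with DESeq2 (0.0218% of all). At an unadjusted p under 0.05 there were 2 of the 60 (3.38% of all genes), *ftm5+* and *ftm6+*. The median was 0.03 against 0.02 for all genes.

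Some genes differed more between haploid cultures than between conditions. Of the 58 subtelomeric genes with a mean of at least 1 CPM over the 12 libraries, 13 had, in haploid NT, a range of 3-fold or more between the 3 libraries, as did 1.08% of all such genes. The corresponding numbers were 7 in haploid MMS (0.791% of genes), 2 in diploid NT (0.198%) and 5 in diploid MMS (1.38%). In 10 of the 13 the lowest level was in haploid NT 1, and in 6 of these haploid MMS 1 was the lowest MMS library too. All 5 tested genes between 11.8 and 39.6 kb from the right end of chromosome I were among the 13. *gdt1+* was at 17.7, 59.8 and 100.5 CPM in haploid NT 1, 2 and 3 and at 12.4, 65.4 and 110.7 CPM in haploid MMS 1, 2 and 3. In diploids it was at 113 to 154.7 CPM in NT and 118.8 to 167.6 CPM in MMS. SPAC186.06, an isomerase, was at 2.38, 27.7 and 56.8 CPM in haploid NT and 1.87, 18.6 and 44.2 CPM in haploid MMS, and SPAC186.04c at 2.73, 10.6 and 12.4 CPM and 2.32, 5.74 and 6.61 CPM. SPAC750.01 had another order, at 270.1, 123.4 and 1092.4 CPM in haploid NT and 264.4, 113.7 and 787.6 CPM in haploid MMS, and at 674, 634.3 and 943.3 CPM in diploid NT and 502.7, 353 and 1323.3 CPM in diploid MMS. Its copy SPAC977.14c stayed within 1128.2 to 1385 CPM and 1613.6 to 1922.2 CPM in haploid NT and MMS. The order of the SPAC977.14c libraries matched that of SPAC750.01 in haploid NT, diploid NT and diploid MMS, and not in haploid MMS. In diploids SPAC977.14c was at 2099.5, 1861.8 and 2315.1 CPM in NT and 1980.5, 1575.9 and 3545.3 CPM in MMS. Each of these 5 genes, *ftm4+* (above) among them, kept the order of its cultures from NT to MMS in haploids, and 8 of the 13 did, as did 55.1% of the 49 genes tested with such a range. Of all 60 subtelomeric genes 23 kept the order, and 37.8% of all genes tested did. An NT and an MMS library from a divided culture share that culture, so an order that both carry is not 2 separate observations.

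**Figure D5:**
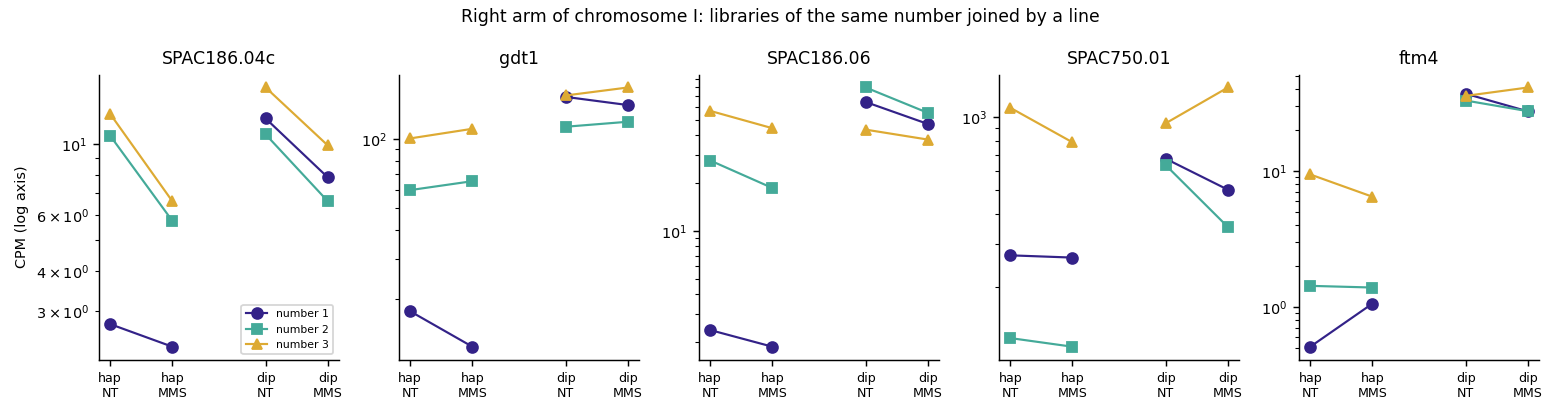
CPM (log axis) of 5 genes on the right arm of chromosome I, with NT and MMS libraries of the same number joined by a line, in haploids (left) and diploids (right). Haploid lines stay in order, with a range of 3-fold or more between NT libraries in each panel. Some lie close, as for SPAC186.04c in libraries 2 and 3 (10.6 and 12.4 CPM in haploid NT). Diploid NT levels differ by less than 2-fold, and in diploid MMS SPAC750.01 runs from 353 to 1323.3 CPM.

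Of 38 heterochromatin and telomere genes tested, 1 was called in any of these comparisons. It was *clr4+*, the H3 methyltransferase gene, lower in haploid MMS (log2FC -0.63 with SE 0.116, edgeR adjusted p = 0.0136), where 1.07% of all genes were called lower. Their median log2FC was -0.06 between diploid and haploid NT, -0.15 for haploid MMS and -0.03 for diploid MMS. Of 19 stress response genes, *ctt1+*, a catalase (log2FC 1.66, adjusted p = 0.0149), and *obr1+* (1.07, adjusted p = 0.0379) were called higher in haploid MMS (1.64% of all genes were), and the metallothionein gene *zym1+* was called lower in diploid than haploid NT (1.79% of all) and higher in diploid MMS (0.589% of all). Of 6 meiosis and sporulation genes tested *rec10+* was called lower in diploid NT (log2FC -0.75, adjusted p = 0.0189, against 1.79% of all genes). In the 250 bases upstream of each gene, the letters TGACGT (either strand), the core of the site bound by Atf1 and related factors, occurred in 2 of the 60 subtelomeric genes and in 4.23% of all genes tested. The letters ACGCGT, the MCB element, occurred in 0 of the 60 and in 2.29% of all.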

How the data were processed

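Per the study's methods, polyadenylated RNA with ERCC spike-ins was sequenced in pairs, aligned with STAR 2.7.0e and assigned to genes with featureCounts. The sources used here do not give the genome build, annotation version, strand setting, featureCounts version or treatment of reads with several matches. The authors deposited unnormalized whole-number counts for 4857 *S. pombe* genes and 92 ERCC transcripts. Of the genes, 4855 matched RefSeq by identifier, and 99.73% of these shared a start or end with it, so its sequence and products were used.

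Genes under 5 reads in at least 2 of the 12 libraries were removed, as was the pair with identical open reading frames, which the study also left out. Counts of the 4584 genes were normalized by TMM, and the quasi-likelihood test of edgeR 4.0.16 in R 4.3.3 (legacy=FALSE, robust=FALSE) was run on all 12 libraries with 1 mean for each condition. Benjamini-Hochberg adjustment covered every gene tested. A call needs adjusted p under 0.05 and absolute log2FC above 0.58 (1.5-fold), and the interaction adjusted p under 0.05 alone. SEs were derived from log2FC and F. CPM used the TMM library sizes, and RPKM the deposited exon length. P values measure the spread between the 3 libraries of a condition, which the study calls biological replicates. Counts were also simulated for diploid against haploid NT over the 4584 genes, with the same spread for every gene. At adjusted p under 0.05 alone, 37% of genes changed 1.5-fold were recovered, 97.5% at 2-fold and 99.5% at 3-fold. The median SD of log2 CPM between libraries of a condition was 0.42 for the subtelomeric genes and 0.17 for all genes tested. The simulated shares therefore do not describe the subtelomeric genes.

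Residuals of same-numbered NT and MMS libraries correlated at 0.711, 0.647 and 0.499 in haploids and 0.56, 0.441 and 0.577 in diploids. Libraries with different numbers correlated from -0.689 to 0.571 in haploids, where NT 2 with MMS 3 (0.571) exceeded NT 3 with MMS 3, and from -0.555 to 0.217 in diploids. Every same-numbered pair was above 0.1, as were some pairs with different numbers, so the correlations alone cannot settle the pairing. Because the methods describe divided cultures, the numbers were taken to pair them, which the labels do not state.

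The subtelomeric genes and the gene lists were chosen with earlier results of these data known. Named were genes called in any comparison, the 3 most abundant genes and the gene nearest the end on each arm, near-identical copies and runs of 3 or more called neighbors. Genes shown for their spread between cultures, and those without a call, were named after their values were seen. The words antiporter and MIP superfamily were added to the transport group after the products were read. Alternatives were DESeq2 1.42.0, median-of-ratios and ERCC size factors, other filters, each library left out, blocks and pairwise fits.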

Additional observations from a re-analysis of the deposited data

Results flagged for a closer look

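For 4 genes, the MMS to NT ratio of every haploid culture lay on the opposite side of 1 from that of every diploid culture, with libraries paired by number, as for 3.62% of all genes tested. The interaction log2FC was -1.33 for *mel1+*, 1.07 for *ftm5+*, 1.18 for *ftm6+* and -0.25 for SPBPB8B6.05c, an L-asparaginase. The adjusted p from edgeR was 0.999 for each, so none passed the test of the difference. The unadjusted p was 0.0789, 0.0198, 0.00265 and 0.54, and SPBPB8B6.05c had log2 ratios of 0.09 to 0.17 in haploids and -0.24 to -0.02 in diploids. The log2 ratios of *mel1+* were 0.51, 0.85 and 0.98 in haploid cultures and -0.66, -1.06 and -0.44 in diploid cultures, and those of *ftm6+* were -0.44, -0.50 and -0.24 in haploids and 0.63, 0.61 and 1.05 in diploids.

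Among the 9 subtelomeric genes removed for low counts, 3 had more counts in every library of a diploid group than in any haploid NT library. These are raw counts, not scaled by library size. The share among all genes removed was not worked out. *fah1+* reached 8 counts in diploid NT, against 0 to 4 in haploid NT. SPBPB2B2.06c, a phosphoprotein phosphatase, reached 49 counts in diploid NT and 76 in diploid MMS, against 3 to 11 in haploid NT and 4 to 9 in haploid MMS. SPBPB2B2.08, an uncharacterized gene, reached 28 and 24, against 4 to 8 in haploid NT, and its haploid MMS counts of 4, 13 and 18 overlapped those of diploid MMS (24, 9 and 14). None was tested.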

How the results depend on the processing

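Between diploid and haploid NT, 46 of the 60 genes were called with spike-in factors, all higher, as were 77.7% of all genes. Their median log2FC was 1.18, against 0.84 for all genes. A fit of those groups alone called 5, and 3 of the 23 genes that lie wholly within 40 kb of an end were called. For MMS in haploids, DESeq2 called 9, the replicate block 13 and the genes within 40 kb gave 1. The spike-in median was -0.85, against -0.6 for all genes. For MMS in diploids, DESeq2 called 9, the replicate block 16, the fit of those groups alone 1, and spike-in factors and the genes within 40 kb gave 0. Between diploid and haploid MMS, spike-in factors gave 58 (99.2% of all genes), with a median of 1.82 against 1.44 for all genes. DESeq2 gave 6 and the replicate block 2, and the fit of those groups alone and the genes within 40 kb gave 0. The interaction median was 0.57 with spike-in factors (0.61 for all genes) and 0.24 within 40 kb. Shares of all genes called by DESeq2, spike-in factors and the block are given above, by direction. They were not worked out for fits of the compared groups alone or fits without a library. The level ratio was 0.129 in CPM and 0.0588 with 10 kb bins, where the nearest bin held only *tlh2+* and *ftm5+*. SPAC977.18 turned to a log2FC of 0.08 with spike-in factors. The causes were not tested. Numbers do not pair haploid with diploid cultures, where same-numbered residuals correlated from -0.342 to 0.371, and the block left the diploid NT count at 9. Without single libraries, calls ran from 1 to 11 between NT groups, 2 to 9 for MMS in haploids, 0 to 8 for MMS in diploids and 0 to 1 between MMS groups, and the interaction kept 0 calls, with medians of 0.14 to 0.36, -0.46 to -0.15, -0.39 to -0.07, 0.21 to 0.45 and -0.08 to 0.19. Of 247 single gene values, 162 kept direction and call, 84 lost the call and 1 reversed. Low counts and shared sequence were common among genes within 40 kb, and their part in these results was not tested.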

Other observations

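The pair left out for its identical open reading frame, *plb4+* and SPBC1348.10c, which encode a phospholipase, had their counts in different copies in different libraries. *plb4+* had 165, 376 and 5 counts and SPBC1348.10c 5, 1 and 1 in haploid NT. In haploid MMS the counts were 0, 0 and 11 against 343, 2 and 6, and in diploid NT 7, 1 and 0 against 1, 283 and 349. In diploid MMS neither exceeded 14 counts.

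SPBCPT2R1.01c, of the DUF999 family and with 0% of its exon stretches found once in the genome, had a range of 3-fold or more in both haploid and diploid NT, at 3.12, 1.06 and 5.37 CPM and 0.435, 0.944 and 6.85 CPM.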
